A study of Drosophila melanogaster with 4 samples.

Results

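The left arm of chromosome 2 (2L) of Drosophila melanogaster carried 870 domains of histone H3 dimethylated at lysine 79 (H3K79me2) in late embryos, outside its last 2 Mb at the centromere end. These members are all the enriched regions that the list for the replicate set placed on 2L with an end at or before 21011544 (FlyBase release 5, per the file headers). They are 870 of the 926 enriched regions on 2L and of the 5314 on all sequences of that list. The embryos were wild type, of the strain Oregon-R, and labelled 14 to 16 h old. Chromatin from whole embryos was crosslinked with formaldehyde, precipitated with an antibody against H3K79me2 and sequenced in 2 ChIP samples, and 2 input samples served as the control for calling. No cell type was sorted, so a domain with a low score in many cells cannot be told apart from one with a high level in few cells.

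H3K79 methylation sits on the surface of the nucleosome core rather than on the histone tail. In flies it is set by grappa, the homologue of Dot1, and in many eukaryotes it is found over the bodies of transcribed genes, mostly in their 5′ part. A domain of the mark is therefore commonly read as the footprint of an active gene. No gene is named here, because the gene table at hand is of release 6 and no coordinate was carried over.

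The 870 members covered 3.06 Mb, which is 14.5% of the 21.01 Mb examined. Replicate 1 had 837 regions on the same stretch and covered 12.9% of it. Replicate 2 had 814 regions and covered 14.5%, so the replicates together gave 13.7% ± 1.11 (SD, n = 2). Members had a median width of 2938 bp, with quartiles of 2397 and 4103.5 bp. Replicate 1 had a lower median width (2742 bp) than replicate 2 (3025 bp). The authors' score, a value per region with no stated unit, had a median of 1.83 over the members. It was 2.08 in replicate 1 and 1.83 in replicate 2 (mean 1.95 ± 0.18, SD, n = 2). Read numbers are unknown and only 1 group has files, so all values here are descriptions of these lists without a test.

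Scores on 2L had a low and a high peak with a shallow dip between them. In the list for the replicate set, 146 members scored under 0.5 and 180 scored between 2.5 and 3. The least filled steps between these lay at 1 to 1.5 with 95 members and 1.5 to 2 with 98. Replicate 1 had its low peak at 0.5 to 1 with 126 regions, its minimum at 1.5 to 2 with 82 and its high peak at 2.5 to 3 with 172. In replicate 2 the low peak also lay at 0.5 to 1 (154 regions), with 100 regions at 1 to 1.5, 156 at 1.5 to 2 and the high peak at 2 to 2.5 (195 regions). Scores of 1 to 2 belonged to 22.2% of members, with 22.9% in replicate 1 and 31.4% in replicate 2. The highest scores reached 3.97 in replicate 1 and 3.34 in replicate 2.

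**Figure D1:**
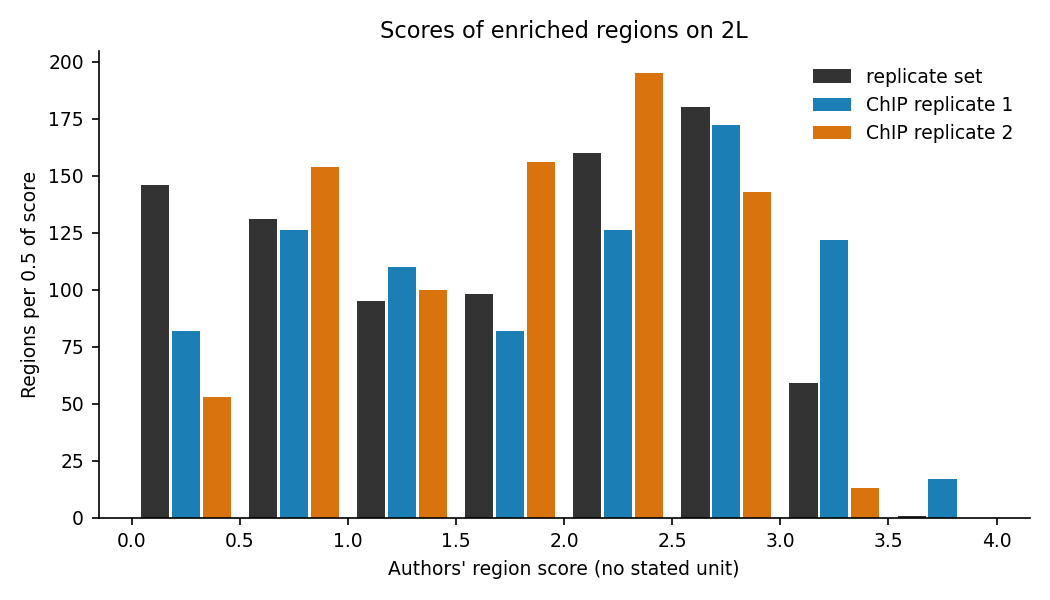
Number of enriched regions of 2L per step of 0.5 in the authors' score (x axis, no stated unit), for the list of the replicate set and for each ChIP replicate. Each list has a low and a high peak, and the high peak lies at 2.5 to 3 in replicate 1 and at 2 to 2.5 in replicate 2.

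High-scoring members made up most of the marked length. The 400 members that scored 2 or more were 46.0% of the members (95% Wilson interval 42.7% to 49.3%, counting error only) and held 58.9% of the covered base pairs. Their median width was 3881 bp. The 193 members scoring 1 to 2 had a median width of 2953 bp. The 277 members scoring under 1 had a median width of 2125 bp and held 19.9% of the covered length. High-scoring members also stood closer together, with a median of 2087 bp to the nearest other member, against 5181 bp for those scoring under 1. Of the 277 low-scoring members, 19 (6.86%) lay under 1 kb from a member scoring 2 or more. That share was 9.84% for members scoring 1 to 2 and 22.25% for those scoring 2 or more. The shares with any other member under 1 kb away were 13.0%, 17.6% and 30.25% in the same order.

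Score rose with width, most steeply between 2 and 3 kb. Of the 110 members narrower than 2 kb, 109 scored under 1, with a median of 0.30. Between 2 and 2.25 kb the highest score was 1.36 and the median 0.51. Between 2.25 and 2.5 kb the highest was 2.47 and the median 1.01, and 12 of 85 members scored 2 or more. Between 2.5 and 3 kb, 92 of 194 members did so, with a highest score of 3.13 and a median of 1.91. Scores in each replicate also rose over these widths. At 1.5 to 2 kb the highest score was 0.87 in replicate 1 and 0.57 in replicate 2. At 2.5 to 3 kb it was 3.56 and 2.81. The replicates differed at 2.25 to 2.5 kb. There 36 of 132 regions of replicate 1 scored 2 or more, against 4 of 84 in replicate 2. Above 3 kb the scores differed less, with medians of 2.24 at 3 to 5 kb, 2.61 at 5 to 7 kb and 2.66 at 7 kb or more.

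**Figure D2:**
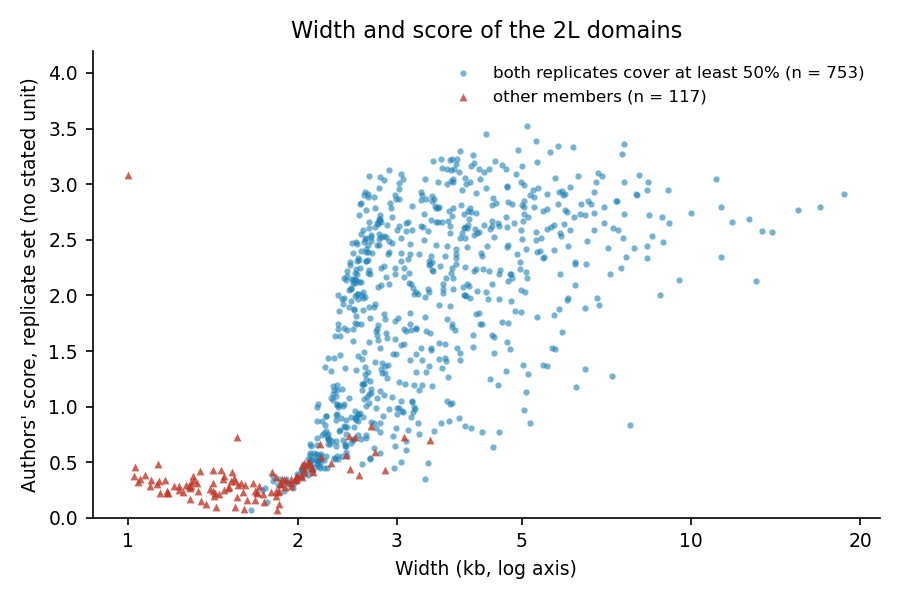
Width (x axis, log scale in kb) and the authors' score (y axis, no stated unit) of each of the 870 members, with circles for the 753 that both replicates cover by at least 50% and triangles for the other 117. Members under 2 kb lie near the bottom except for 1 triangle at the upper left, and the score range opens between 2 and 3 kb.

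The exception among the narrow members was the narrowest region of all, chosen here after its values were seen. It spans 1001 bp from 4182716 to 4183716 with a score of 3.08, which ranked 38th of the 870. It was the only member scoring 2 or more that was narrower than 2 kb, and the only one of that score class that neither replicate list touched. The nearest region lay 2.34 kb away in replicate 1 and 2.23 kb away in replicate 2. On its left, 148 kb had no member, and its right neighbour, 2.27 kb away, scored 2.53. Whether reads of both replicates support it cannot be seen from region lists.

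The widest domains were long blocks of high but not extreme score. The 10 widest measured 11.3 to 18.7 kb and scored 2.13 to 2.91, and none of them was among the 10 highest-scoring. One of the most alike in both replicates lay from 8299492 to 8312842 (13.4 kb). It was 1 region of 13.0 kb with a score of 2.60 in replicate 1 and 1 region of 13.5 kb with a score of 2.58 in replicate 2. A domain from 9887142 to 9898462 (11.3 kb) had a width of 11.3 kb in each replicate, with scores of 2.75 and 2.85. In other wide domains the lists drew different borders. The 15.5 kb domain from 4451152 to 4466652 was 1 region of 15.8 kb in replicate 2 and 3 regions in replicate 1, the largest of 9.96 kb. The 13.0 kb domain from 2744064 to 2757108 had the lowest score of the 10, 2.13. It was also 1 region in replicate 2 (13.4 kb) and 3 in replicate 1, which together covered 73.2% of it. At 19575050 to 19588998 the opposite was found: the 13.9 kb domain was 1 region of 13.5 kb in replicate 1 and touched 2 regions in replicate 2, the larger of which reached from 19569772 to 19586026.

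Apart from 1 domain split in both replicates, the 5 remaining wide domains showed the same types. Replicate 2 held the widest one (4964790 to 4983498) and those from 10421202 to 10433018 and from 1722386 to 1733684 as 1 region each, whereas replicate 1 held each as 2. The domain from 11986232 to 12003164 was 1 region in both, and the one from 10258882 to 10271544 was 2 regions in both. Over all 45 members of 7 kb or more, 15 touched at least 2 regions in replicate 1 and 3 did so in replicate 2. Both replicates covered at least 50% of each of the 45.

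The highest-scoring domains were of middle width, 3.89 to 7.60 kb, with scores of 3.27 to 3.52 in the replicate set. All 10 were 1 region in each replicate, and all 10 scored lower in replicate 2. Scores of 3 to 3.5 were rarer in replicate 2 over the whole stretch, with 13 regions against 122 in replicate 1. The gap between replicates was smallest for the domain from 2764096 to 2771696 (7.60 kb), with 3.40 in replicate 1 and 3.34 in replicate 2. It begins 6.99 kb past the end of the 13.0 kb domain described above, and a 3.82 kb domain from 2757804 with a score of 3.18 lies between them. The domain from 9965118 to 9969442 (4.33 kb) scored 3.66 and 3.31. The domain from 5323552 to 5328856 (5.31 kb) scored 3.67 and 2.98 and was followed by 132 kb without a member. The largest gap of the 10 belonged to the narrowest, from 3464094 to 3467984 (3.89 kb), with 3.86 in replicate 1 and 2.65 in replicate 2. The top-ranked domain, from 8040204 to 8045324, differed almost as much (3.97 and 2.93). The high peaks from 13163204 to 13168138 and from 13218156 to 13224324 stood 50.02 kb apart and scored 3.31 and 3.33. The other 3, from 5996096 to 6001898, from 1609474 to 1615100 and from 6916258 to 6923798, scored 3.34, 3.29 and 3.27.

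Spacing between neighbouring members ran from 1 bp to 393.5 kb. The median distance from the end of one member to the start of the next was 6727 bp, with quartiles of 2267 and 22467 bp. Replicate 1 gave 7011.5 bp, and replicate 2 gave 6683 bp (mean 6847 ± 232, SD, n = 2). The mean distance of 20548 bp was 3.05 times the median, since long distances held a large share of the unmarked length. The 38 distances over 100 kb were 4.37% of the 869 distances but made up 32.3% of the unmarked length between members. Distances of 50 to 100 kb added 24.4%. At the other end, 107 distances were under 1 kb and together made up 0.29% of that length.

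Some neighbours nearly touched. In 10 cases less than 100 bp separated them, and the shortest distance was 1 bp, between 20649246 and 20649248. The left domain of that pair was 5077 bp wide and scored 2.03, and the right one was 2177 bp wide and scored 1.02. Replicate 2 held the pair as 1 region and replicate 1 held it as separate regions. For 4 of the 10 pairs, 1 region of replicate 2 covered at least 50% of both neighbours, and for none did a region of replicate 1. Close neighbours could have very different scores: a 1333 bp domain from 4440128 scored 0.25, and the 5011 bp domain that begins 29 bp after its end scored 3.16. Neither replicate had a region over the weaker of these. Scores of neighbours had a Spearman correlation of 0.07 across the 869 neighbouring pairs, which share members. The median score difference between neighbours was 0.67 for pairs under 1 kb apart, 0.85 at 1 to 5 kb, 0.95 at 5 to 20 kb and 1.00 at 20 to 100 kb. Spearman correlations in the same distance classes were 0.003, 0.08, 0.06 and -0.07, so the correlation did not rise at short distance. All starts and ends in the list for the replicate set were even numbers, whereas 647 regions of replicate 1 and 599 of replicate 2 had an odd start or end.

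Many members stood in runs. When members less than 5 kb apart were joined into a run, 189 runs of at least 2 members formed and 306 members (35.2%) stood alone. Runs of 5 or more numbered 23 and held 150 members (17.2%). The median score was 2.23 in these long runs and 1.12 for members standing alone. Median widths were 3455 and 2740 bp. The order was alike in replicate 1 (scores of 2.54 and 1.34) and in replicate 2 (2.05 and 1.38).

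The run with the most members held 14 in 87.6 kb, from 10353302 to 10440870, and 73.7% of its length was marked. The marked share was 68.5% in replicate 1 and 73.3% in replicate 2, each with 14 regions. In replicate 2 one distance inside it was 5372 bp, so by the same rule it was no single run there, and the largest run of replicate 2 had 11 regions. Its members ran from 1.41 to 11.8 kb in width and from 0.31 to 2.79 in score. Its strongest domain, 3.78 kb wide from 10407416, scored 2.79, with 3.03 in replicate 1 and 2.68 in replicate 2. The 2 members scoring under 1 were narrow: 1413 bp from 10353302, found in replicate 2 only, and 1973 bp from 10381918, found in both. The widest, from 10421202 to 10433018, scored 2.66.

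**Figure D3:**
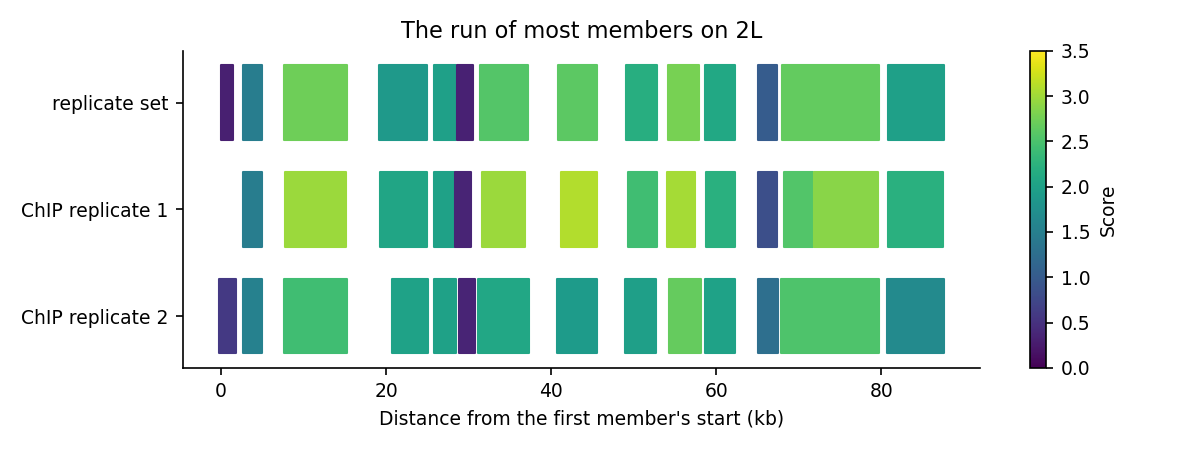
Enriched regions of the run of 14 members on 2L in the list for the replicate set and in each ChIP replicate, by distance from the start of the first member (x axis, kb), coloured by the authors' score. The tracks show the same blocks in nearly the same places, with the first block missing in replicate 1 and higher scores in replicate 1 over most of the wide blocks.

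The second run, from 10218996 to 10279732, ended 73.6 kb before it, with 9 members in 60.7 kb and 74.3% of its length marked. Of these 9 members, 8 scored 2 or more, and all 9 were covered by both replicates. These runs lay in the 300 kb from 10200001 to 10500000, of which 39 members covered 59.1%, against 13.9% of the rest of the 2L stretch. The replicates gave 55.7% and 58.4% (mean 57.0% ± 1.89, SD, n = 2). This stretch was picked after its values were seen. It consists of 3 adjoining windows that were among the 5 most covered windows of 100 kb. The other 2 of those windows began at 5000001 (47.8%) and 1100001 (44.9%). Between the runs of 9 and 14 members lay a run of 8 members in 55.4 kb, from 10290390 to 10345816, with 72.0% of its length marked and scores of 0.79 to 2.82. It had as many members as the run from 7022364 to 7066746, which held them in 44.4 kb, none wider than 3.77 kb. Of that run 58.3% was marked, and 65.7 kb without a member followed it.

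Along the arm, the marked share of 1-Mb bins varied 5.38-fold. Its median over the 21 whole bins was 14.5%. The 3 most marked bins began at 10 Mb (26.5%, 66 members), 8 Mb (21.1%, 59 members) and 6 Mb (21.02%, 55 members). Over the replicates these bins had 25.1% ± 0.55, 19.8% ± 0.98 and 20.3% ± 1.81 (SD, n = 2). In replicate 2 the bin at the telomere end (20.9%) stood above the bin at 8 Mb (20.5%). The bin at 10 Mb differed from the one at 8 Mb in make-up as well as amount. Its members had a median width of 3494 bp and a median score of 2.11, against 2749 bp and 1.68, and it held 7 of the 45 members of 7 kb or more. The bin at 8 Mb held 4 of these wide members. Of its members 37.3% scored under 1, against 25.8% in the bin at 10 Mb and 31.8% of all members.

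The 3 least marked bins began at 14 Mb (4.92%, 18 members), 17 Mb (5.67%, 17 members) and 15 Mb (7.80%, 26 members). Replicate means were 4.54% ± 0.73, 5.10% ± 0.43 and 7.12% ± 0.48 (SD, n = 2), and the other 18 bins had at least 9.61% in replicate 1 and 10.9% in replicate 2. Of the members there, 50%, 47.1% and 46.2% scored under 1, against 31.8% of all members. Median scores of these bins were 1.07, 1.08 and 1.15, against 1.83 over all members. The replicates' own median scores in these bins were higher, 1.41 to 1.61 in replicate 1 and 1.21 to 1.74 in replicate 2. Over the whole stretch the replicates had medians of 2.08 and 1.83. The bin between them, at 16 Mb, was covered to 13.1% with 39 members and held 4 members of 7 kb or more. Across the 21 bins, the covered share had a Spearman correlation of 0.92 with the number of members, 0.60 with their median width and 0.42 with their median score. The first 2 are partly built in, since the covered share is made up of the widths of these same members. These correlations describe bins of the same 3 lists and carry no p.

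**Figure D4:**
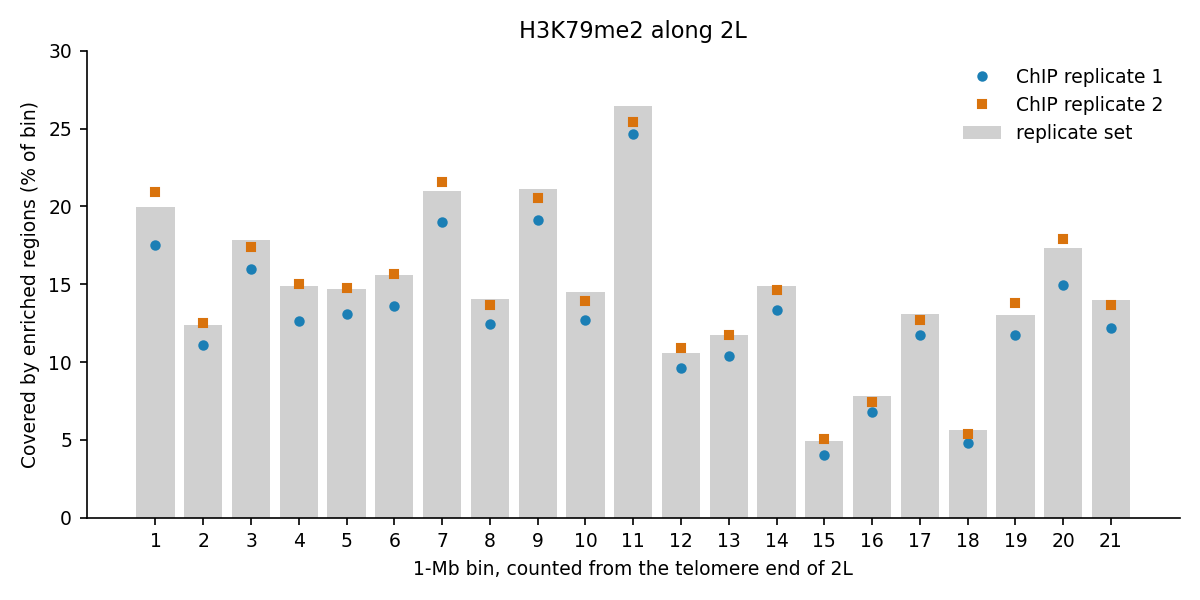
Share of each 1-Mb bin of 2L covered by enriched regions (y axis, %), for bins counted from the telomere end (x axis), with bars for the replicate set, circles for ChIP replicate 1 and squares for ChIP replicate 2. Bin 11 stands highest at 26.5%, bins 15, 16 and 18 stand lowest, and replicate 2 lies above replicate 1 in all 21 bins.

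The part of the stretch toward the centromere was the sparsest. The first 7 bins were covered to 15.8% ± 1.497 (SD, n = 2), the next 7 to 15.2% ± 0.86 and the last 7 to 10.15% ± 0.98. Replicate 1 gave 14.7%, 14.6% and 9.46%, and replicate 2 gave 16.8%, 15.8% and 10.8%, so the last 7 bins were lowest in both. Most of that deficit lay between 14 and 18 Mb, a span chosen after its values were seen. There the replicates covered 7.24% ± 0.58, against 15.2% ± 1.24 over the rest of the stretch. The span is 19.0% of the sequence examined, yet it held 11.5% of the members and 10.3% of the marked length. Coverage was higher again beyond it, at 19 Mb, with 51 members and 17.3%. The share of these bins to which reads can be assigned was not measured.

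At finer scale, the median window of 100 kb was covered to 12.2%. Of 210 windows of 100 kb, 22 held no marked base pair in any of the 3 lists. At least 30% of the window was marked in 24 windows. Neighbouring windows had a Spearman correlation of 0.25 in covered share, and windows 200 kb apart had -0.03. Replicates ranked the windows almost alike, with a correlation of 0.98.

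Long empty stretches were spread over nearly the whole arm. Stretches of over 100 kb without a member numbered 38 and had their centres in 20 of the 21 bins, all but the one at 16 Mb. They made up 5.76 Mb, which is 27.4% of the sequence examined. Of the 38, 36 held no whole region of either replicate. The other 2 held 1 region of replicate 2 each, both weak: one of 2011 bp with a score of 0.62, and one of 1382 bp with a score of 0.42. Between 14 and 18 Mb, empty stretches of over 100 kb took up 50.2% of the sequence.

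The longest empty stretch ran for 393.5 kb from 15771941 to 16165441. Its length was 393.5 kb in replicate 1 and 393.7 kb in replicate 2, and its flanking members scored 0.56 and 0.43. The next, from 16910969 to 17258643 (348 kb), was likewise bordered by weak members, with scores of 0.20 and 0.78. The third, from 14690079 to 14971177 (281 kb), had a member scoring 2.23 on its left and one scoring 0.29 on its right. The right one had no counterpart in replicate 2, where the empty stretch measured 305.6 kb. The fourth, from 20098143 to 20310389 (212 kb), was bordered by members scoring 2.06 and 1.77. It was 270 bp longer in replicate 2 than in replicate 1. The fifth, from 4595815 to 4793749 (198 kb), lay in a bin covered to 14.7%, 129 kb after the end of the 15.5 kb domain described above.

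Members next to a long empty stretch had a lower median score than other members. The 72 members that border a stretch of over 100 kb had a median score of 1.21, and 25% of them scored 2 or more (95% Wilson interval 16.4% to 36.1%). The other 798 members had a median score of 1.91, and 47.9% scored 2 or more (44.4% to 51.3%). All these members come from 1 list of the same 2 libraries. The intervals therefore cover counting error only, not the spread between replicates, and the difference was not tested. Widths differed little, with medians of 2779 and 2953 bp. The 29 members with no other member within 50 kb on either side had a median score of 0.95, although the highest among them scored 2.90, and both replicates covered 22 of them.

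Both replicates covered at least 50% of 753 members (86.6%, 95% Wilson interval 84.1% to 88.7%). For 719 members the overlap was with 1 region in each replicate. Another 24 touched at least 2 regions in replicate 1 and 1 in replicate 2, 6 touched 1 in replicate 1 and at least 2 in replicate 2, and 5 touched at least 2 in both. Replicate 1 alone had a region for 51 members and replicate 2 alone for 47, with median scores of 0.35 and 0.32. Neither had one for 18 members. By score, both replicates covered all 193 members scoring 1 to 2, 399 of the 400 scoring 2 or more and 161 of the 277 scoring under 1 (58.1%, 52.2% to 63.8%). By width, they covered 18 of the 110 members narrower than 2 kb and all 136 members of 5 kb or more.

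The 18 members without a region in either replicate were mostly at the floor of width and score. Their median width was 1288 bp and their median score 0.27. One of them is the 1001 bp domain with a score of 3.08 described above. On this stretch no region was narrower than 1313 bp in replicate 1 or 1314 bp in replicate 2, and 11 of the 18 were narrower than 1300 bp. The 5 widest of them, beginning at 2958820, 9633812, 3460834, 13803278 and 7333436, were 1417 to 1597 bp wide and scored 0.09 to 0.43. In the other direction, 3 regions of replicate 1 and 17 of replicate 2 touched no member, with highest scores of 0.34 and 0.76.

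Paired domains were mostly wider in replicate 2, at 1 edge or at both. Over the 694 members paired one to one in both replicates, regions were wider in replicate 2 by a median of 277.5 bp (quartiles 92.3 and 522.8 bp). The left edge lay further out in replicate 2 by a median of 139 bp and the right edge by 122.5 bp. Both edges lay further out in replicate 2 in 48.8% of pairs, only 1 edge in 46.7% and neither in 4.47%. Centres differed by a median of 135 bp between replicates, and by 77.3 bp for members scoring 3 or more. Widths had a Spearman correlation of 0.90 and scores one of 0.88 between replicates, across members that share the same 2 libraries.

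The score difference between replicates depended on the score itself. Among the 56 pairs with a member scoring 3 or more, all 56 scored lower in replicate 2, with medians of 3.41 in replicate 1 and 2.89 in replicate 2. The member score lay close to the mean of the replicate scores (median difference -0.018). Replicate 2 had 13 regions scoring 3 to 3.5, against 122 in replicate 1. Choosing pairs by a member score of 3 or more therefore partly fixed the direction in this class. Among 306 pairs scoring 2 to 3, 252 were lower in replicate 2 (medians 2.72 and 2.34). For weaker domains the direction was mixed: 85 of 177 pairs scoring 1 to 2 and 66 of 155 scoring under 1 were lower in replicate 2. Replicate 1 thus had the wider range of scores on 2L, and no single shift relates the scales. Read depth per replicate is unknown, and its part in this was not tested.

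**Figure D5:**
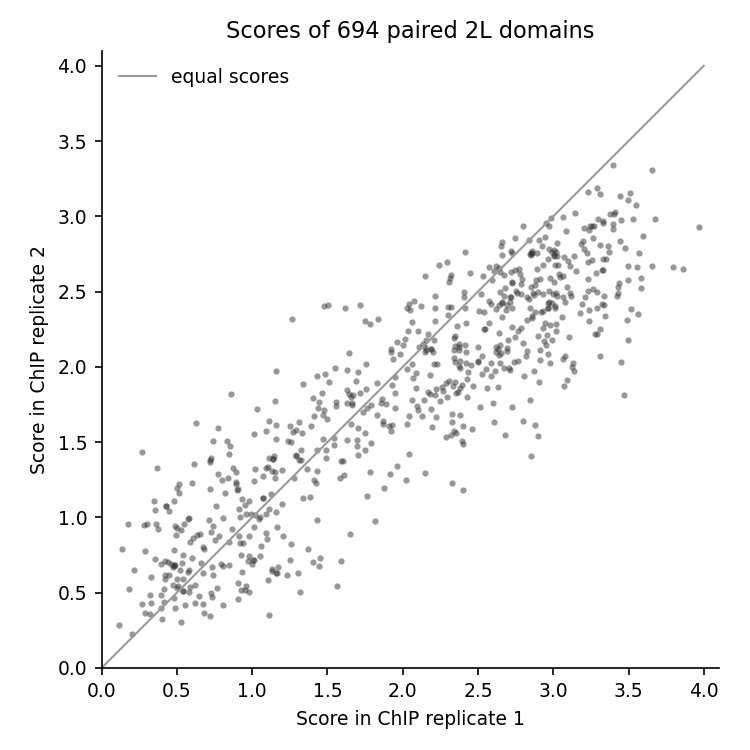
Authors' score in ChIP replicate 1 (x axis) and ChIP replicate 2 (y axis) of the 694 members of 2L paired one to one, with the line of equal scores. Points lie around the line below 2 and mostly under it above 2, and all 56 pairs with a member scoring 3 or more are lower in replicate 2.

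Single domains differed by more than these medians. The largest difference toward replicate 2 was at 6676204 to 6678450 (2.25 kb), which scored 0.27 in replicate 1 and 1.43 in replicate 2. The domain from 9251478 to 9253996 scored 1.26 and 2.32, and the one from 220138 to 222756 scored 0.63 and 1.63. The largest difference toward replicate 1 was at 6556860 to 6559774, with 3.47 in replicate 1 and 1.81 in replicate 2. That domain ends 111 bp before the next member. The domains from 12973444 to 12976874 (2.85 and 1.41) and from 865304 to 873316 (3.45 and 2.03) followed. The first domain of the arm, from 16248 to 23102 (6.86 kb), also differed widely, with 2.40 in replicate 1 and 1.18 in replicate 2.

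The limit at 21011544 cut no domain. The last member inside it, from 20924680 to 20928436, was 3.76 kb wide and scored 1.03, with 1.15 in replicate 1 and 1.26 in replicate 2. The first region outside it, from 21049664 to 21054314, was 4.65 kb wide and scored 1.76, with 2.36 in replicate 1 and 1.56 in replicate 2. The 56 regions past the limit are left out of all values above.

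The other large arms, each without its assembled 2 Mb at the centromere end, are set beside 2L as values without a test. The marked share of 13.7% ± 1.11 on 2L stood against 14.6% ± 1.53 on 3R, 14.8% ± 1.33 on 3L, 15.3% ± 1.79 on X and 17.7% ± 1.76 on 2R (SD, n = 2). The difference from 2L was larger than both SDs on 2R only, yet 2L was lowest in replicate 1 (12.9% against 13.5% to 16.5%) and in replicate 2 (14.5% against 15.7% to 19.0%). Median width on 2L was 2883.5 bp ± 200 against 2987 to 3075 bp elsewhere, all within these SDs. Replicate 2 had the higher median width on every arm, so these SDs hold a difference that the arms share. Within each list 2L was lowest, with 2742 bp against 2806 to 2915.5 bp in replicate 1. In replicate 2 it had 3025 bp against 3168.5 to 3268 bp. The median distance between regions was 6847 bp ± 232 on 2L, between 6777 bp on 2R and 7537 bp on 3L. The longest empty stretch on the other arms measured at most 278 kb in each of the 3 lists, against 393.5 to 393.7 kb on 2L.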

How the data were processed

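Per the file headers, each of the 3 deposited lists gives regions of significant enrichment (1-based, FlyBase release 5). Per the submitters' processing notes, reads were aligned with Bowtie 0.12.7. For the caller, its threshold and the making of the list for the replicate set, the sources used here give nothing. The score of each region is as the authors deposited it, with no stated unit, so it is compared by differences, never by folds. The labels pair each ChIP replicate with the input of the other number. The inputs are not analysed here. Nothing says that the replicates came from separate collections, so their spread may be technical.

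Members were taken by arm and end position. Python 3.11.15, numpy 2.4.6, scipy 1.17.1 and pandas 2.3.3 computed widths (end minus start plus 1), distances, covered shares, and overlaps with each replicate list. A member counted as shared where 50% of it was covered. Paired means that member and replicate region touched no other region. The code for covered length, empty stretches, overlaps and touching regions was exact on 20 of 20 simulated lists. Distances, runs and pairing were not checked in this way. Depth is unknown. Wilson intervals (95%) cover counting error only.

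Members, lists and limits were chosen with earlier results of these data known. The rule for named regions took the 10 widest and 10 highest-scoring members, the 5 longest empty stretches, the 3 highest and lowest 1-Mb bins, the 3 largest runs, the 3 largest score differences each way, and the 5 widest members in neither replicate.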

Additional observations from a re-analysis of the deposited data

How the results depend on the processing

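Of 47 alternative values, 21 stayed within set limits. The limit was 1 SD of the replicates for most results and the 95% interval for the share both replicates cover. For the number of members it was a wider one, within 1.5 times. Every alternative number of members met that limit but lay more than 1 SD of the replicates (16.3) from 870. With a single replicate list in place of the replicate set, the number of regions ranged from 814 to 837, the covered share from 12.9% to 14.5%, median width from 2742 to 3025 bp, median score from 1.83 to 2.08, median distance from 6683 to 7011.5 bp, and the longest empty stretch from 393.5 to 393.7 kb. The most marked bin ranged from 24.7% to 25.4%, the least marked from 4.02% to 5.06%, and the share of members that the 1 replicate covers from 92.0% to 92.5%. Members scoring 1 or more numbered 593, with a covered share of 11.6%, a median width of 3563 bp and a median score of 2.32. Taken alone, they gave a median distance of 8110 bp and a longest empty stretch of 486.3 kb. The highest and lowest bins then had 23.2% and 2.94%, and both replicates covered 99.8% of these members. This follows in part by construction, since weak domains are narrow. Only members that both replicates cover gave a median width of 3185 bp, a median score of 2.06 and a median distance of 7055 bp. The median distance was 7709 bp after merging neighbours under 500 bp apart and 6993 bp over all of 2L. Bins placed 500 kb later had a maximum of 30.3%. Bins of 500 kb ranged from 1.68% to 38.7%, since smaller bins average less. Requiring 80% cover left 75.2% of members shared. No paired analysis was possible because the input samples have no list and no groups were compared.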

Other observations

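The list for the replicate set held 1 region called depleted on this stretch of 2L, which is no member. It spans 1731 bp from 9539952 to 9541682, with a score of -0.01. Replicate 1 listed an enriched region over all of it, from 9539798 to 9541710, with a score of 0.28, and replicate 2 listed none. The nearest members lay 15.5 kb before it (score 1.83) and 7.80 kb after it (score 0.28).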
